A study of Mus musculus with 12 samples.

Results

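The genes described here are 29 genes of cholesterol synthesis and of its regulation by sterols, among 16239 named genes measured in mouse liver by RNA sequencing. They were chosen by symbol as pathway genes, with earlier results of these data known: 5 regulators, 21 enzymes, and 3 genes of sterol transport and storage. The enzymes were filed by step from acetyl-CoA to cholesterol, and among them Ggps1 and Aacs stand beside the direct route. All 29 were listed in each of 12 libraries and all 29 passed the filter on low counts, with estimated counts between 18 (Mylip in HF knockout replicate 1) and 15528 (Hmgcs1 in HF knockout replicate 2). The mice were of strain 129/B6 and 10 months old, and had eaten a diet labelled HF or LF for 8 months. Knockout mice lacked thrombospondin 1 (TSP1), a secreted matrix protein, in macrophages only. Floxed mice carried the TSP1 flox allele, and their genotype is labelled WT. The 4 groups were HF knockout, HF floxed, LF knockout and LF floxed, with 3 libraries each. The promoter that drove the recombinase is not given in the sources used here. Nothing in the labels says whether the 3 libraries of a group came from separate animals, so the spread behind each p-value may be technical.

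The liver is a main site of cholesterol synthesis. Acetyl-CoA is built up to mevalonate, then to the isoprenoid farnesyl diphosphate, then to squalene and lanosterol, which a chain of demethylations, reductions and isomerisations turns into cholesterol. The transcription factor SREBP2, encoded by Srebf2, switches on most of these genes when sterols in the endoplasmic reticulum are low, and it acts at its target promoters together with the general factors NF-Y and Sp1. SCAP carries SREBP2 to the Golgi for cleavage, and the INSIG proteins hold SCAP back when sterols are plentiful, so the enzymes of the pathway are known to move together.

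Named genes received 13336969 to 15080378 estimated counts per library. Hepatocyte markers summed to between 39577 and 103190 FPKM, fragment counts scaled to gene length and library size, so each library held liver RNA. Replicates 2 and 3 of LF knockout, and replicates 1 and 2 of HF floxed, were near-identical, with log2 FPKM correlations of 0.9967 and 0.9951 across genes. Their chi-square statistics per degree of freedom of 2.85 and 9.07 were above sampling noise but far below the 51.22 to 540.7 of the other pairs within a group, so they were kept as separate libraries and averaged in an alternative. HF knockout replicate 2 stood apart from both its group mates, with correlations of 0.9092 and 0.9307. Thbs1, the TSP1 gene, had 0.16, 1.42 and 1.63 FPKM in HF knockout and 0.75, 0.75 and 0.31 FPKM in HF floxed libraries, and 0.08, 0.55 and 0.55 FPKM in LF knockout and 0.11, 0.06 and 0.07 FPKM in LF floxed libraries. The genotypes overlapped on both diets, so in whole liver, where other cells also make this transcript, Thbs1 gives no check of the knockout labels.

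The DNA before the start sites was searched for the letters that these 3 factors bind. Of the 29 genes, 24 had an entry in the RefSeq promoter table, which follows build GRCm38.p6 and was used without 1 chromosome. Fdps, Fdft1, Sqle, Stard4 and Soat2 had none in the part used. Windows from 250 bases before to 50 bases after each start were searched on both strands. The NF-Y motif CCAAT stood in 21 of these 24 genes (87.5%), beside 41.06% of all 27025 genes in that part and 43.0% of the tested genes in it. The Sp1 motif GGGCGG also stood in 21 of 24, beside 38.2% of all genes and 67.1% of the tested ones. The sterol regulatory element core TCACNCCAC was found in 1 of 24, Hmgcs1, at -137 to -129 from the start, beside 1.44% of all genes. A match is a description of letters, and a missing match says only that these letters are not in the window. Printed here are the 250 bases before the start of Hmgcs1, which holds the element, and of Mvk, Idi1, Msmo1 and Srebf2, the 4 genes whose HF knockout libraries all lay above the LF knockout libraries in FPKM. Capitals mark CCAAT on either strand (read as ATTGG on the other) and, in Hmgcs1, the sterol regulatory element core. The intervals are chr13:119690101-119690350 (plus strand) for Hmgcs1, chr5:114444019-114444268 (plus) for Mvk, chr13:8885356-8885605 (plus) for Idi1, chr8:64733579-64733828 (minus) for Msmo1 and chr15:82147019-82147268 (plus) for Srebf2.
Hmgcs1: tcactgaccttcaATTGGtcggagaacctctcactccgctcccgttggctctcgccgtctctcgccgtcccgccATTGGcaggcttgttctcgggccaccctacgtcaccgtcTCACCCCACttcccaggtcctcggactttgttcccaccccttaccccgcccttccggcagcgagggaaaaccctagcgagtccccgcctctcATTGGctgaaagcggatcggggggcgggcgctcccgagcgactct
Mvk: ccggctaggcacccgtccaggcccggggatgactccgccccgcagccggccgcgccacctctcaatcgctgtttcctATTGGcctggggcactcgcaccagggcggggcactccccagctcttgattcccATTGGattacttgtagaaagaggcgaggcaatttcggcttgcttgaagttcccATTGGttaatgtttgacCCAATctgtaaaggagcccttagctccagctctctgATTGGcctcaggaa
Idi1: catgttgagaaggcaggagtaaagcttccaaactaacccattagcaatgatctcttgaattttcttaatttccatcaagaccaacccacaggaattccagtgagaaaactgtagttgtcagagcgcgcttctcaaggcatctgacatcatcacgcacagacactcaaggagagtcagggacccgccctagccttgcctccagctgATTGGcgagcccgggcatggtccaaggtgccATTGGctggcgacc
Msmo1: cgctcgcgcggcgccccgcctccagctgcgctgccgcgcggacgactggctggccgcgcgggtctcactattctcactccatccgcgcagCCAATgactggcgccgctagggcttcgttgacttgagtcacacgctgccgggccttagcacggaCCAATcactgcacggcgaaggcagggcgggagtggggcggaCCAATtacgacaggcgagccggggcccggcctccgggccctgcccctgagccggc
Srebf2: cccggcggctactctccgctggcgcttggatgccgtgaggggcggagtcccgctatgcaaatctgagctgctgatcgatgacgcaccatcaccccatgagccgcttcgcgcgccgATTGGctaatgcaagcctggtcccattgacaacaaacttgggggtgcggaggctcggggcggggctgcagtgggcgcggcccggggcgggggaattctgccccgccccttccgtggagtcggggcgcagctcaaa
In the whole window the NF-Y motif occurred 5 times in Mvk, 4 times in Hmgcs1, 3 times in Msmo1, 2 times in Idi1 and 1 time in Srebf2.

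Levels were ordered by the median FPKM over the 12 libraries, a value scaled to gene length. Sc5d, the desaturase near the end of the pathway, was highest at 163 FPKM, followed by Fdps (farnesyl diphosphate synthase, 141 FPKM), Insig2 (112 FPKM), Ebp (the sterol isomerase, 106.5 FPKM) and Insig1 (86.6 FPKM). These neighbours overlapped widely between libraries: Sc5d ran from 97.4 to 339 FPKM and Fdps from 51.0 to 370 FPKM. The lowest levels were those of Ggps1 (geranylgeranyl diphosphate synthase, 0.925 FPKM), Lbr (the nuclear envelope sterol reductase, 1.81 FPKM) and Mylip (2.02 FPKM), with at least 38, 66 and 18 estimated counts per library.

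**Figure D1:**
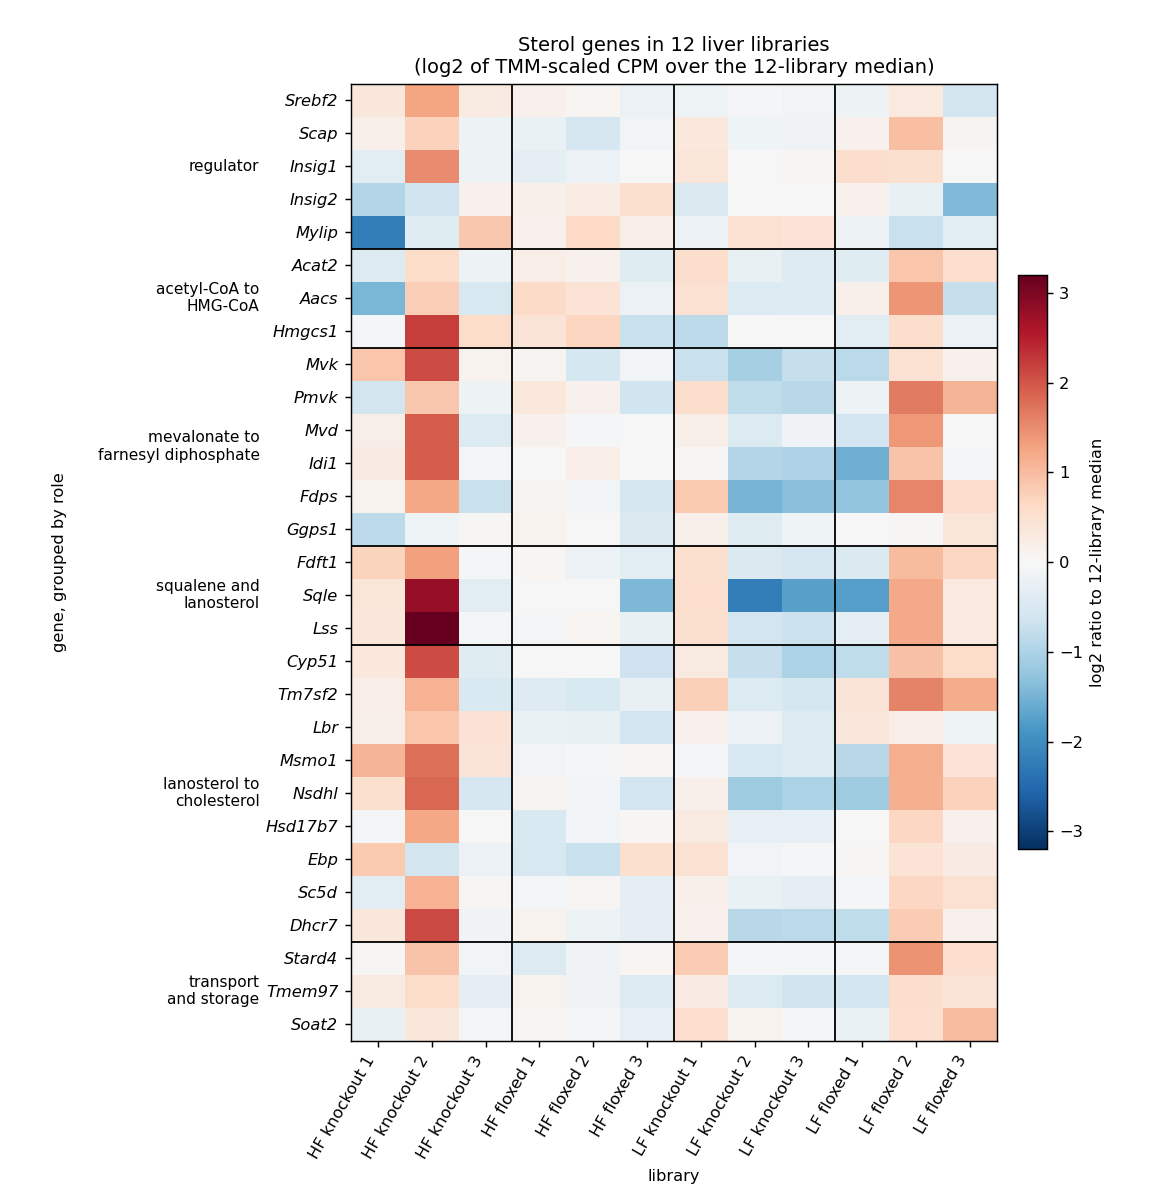
Heat map of the 29 genes (rows, by role) in the 12 libraries (columns, HF knockout to LF floxed), coloured by the log2 ratio of TMM-scaled counts to the gene's 12-library median. The column of HF knockout 2 is red for most enzymes, LF floxed 2 is the next reddest, and LF knockout 2 and 3 and LF floxed 1 are blue for many of the same rows.

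The regulators did not share a pattern. Srebf2 had 10.98, 25.8 and 14.1 FPKM in HF knockout, 12.7, 12.8 and 8.59 FPKM in HF floxed, 9.06, 10.3 and 10.2 FPKM in LF knockout, and 7.99, 11.6 and 6.26 FPKM in LF floxed libraries. HF knockout 2 was its highest library, and the others ran from 6.26 to 14.1 FPKM. Scap had 20.2, 38.1 and 21.6 FPKM in HF knockout, 20.7, 17.7 and 19.3 FPKM in HF floxed, 26.5, 20.9 and 21.2 FPKM in LF knockout, and 20.9, 38.6 and 21.3 FPKM in LF floxed libraries. HF knockout 2 and LF floxed 2 were the high libraries, and the rest lay close together. Insig1, a target of SREBP2 as well as its brake, had 54.1, 251 and 82.6 FPKM in HF knockout, 75.6, 87.5 and 79.2 FPKM in HF floxed, 104, 85.7 and 89.2 FPKM in LF knockout, and 107, 108 and 75.8 FPKM in LF floxed libraries. HF knockout held both its highest and its lowest library. Insig2, which also holds SCAP back, had 49.0, 76.02 and 137 FPKM in HF knockout, 141, 158 and 152 FPKM in HF floxed, 78.4, 119 and 117 FPKM in LF knockout, and 108, 86.5 and 38.9 FPKM in LF floxed libraries. Its highest group was HF floxed, and HF knockout 2 was not raised. Mylip, an E3 ubiquitin ligase for lipoprotein receptors that the sterol sensor LXR induces, had 0.37, 1.69 and 4.26 FPKM in HF knockout, 2.58, 3.86 and 2.27 FPKM in HF floxed, 1.77, 3.06 and 2.97 FPKM in LF knockout, and 1.62, 1.16 and 1.5 FPKM in LF floxed libraries. It was the only member whose highest-to-lowest ratio within HF knockout passed 10-fold, at 11.51.

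Most enzymes were highest in 1 library, HF knockout 2. Hmgcs1, the cytosolic HMG-CoA synthase, had 45.5, 275 and 94.3 FPKM in HF knockout, 83.5, 109 and 32.4 FPKM in HF floxed, 30.2, 59.2 and 58.1 FPKM in LF knockout, and 38.3, 76.3 and 45.5 FPKM in LF floxed libraries. Its HF knockout 2 value was 3.94 times the mean of the other 2 libraries of that group. Mvk, mevalonate kinase, had 13.5, 39.3 and 10.7 FPKM in HF knockout, 10.4, 7.18 and 7.90 FPKM in HF floxed, 5.20, 4.41 and 5.45 FPKM in LF knockout, and 4.31, 11.2 and 8.87 FPKM in LF floxed libraries. All 3 HF knockout libraries lay above every HF floxed and every LF knockout library. Idi1, which interconverts the C5 isoprenoid units, had 15.2, 61.0 and 16.6 FPKM in HF knockout, 16.99, 21.3 and 14.4 FPKM in HF floxed, 15.03, 8.30 and 7.97 FPKM in LF knockout, and 4.49, 26.2 and 13.4 FPKM in LF floxed libraries. Outside HF knockout 2, its HF knockout libraries lay among those of HF floxed.

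Fdps had 125, 338 and 95.5 FPKM in HF knockout, 164, 156 and 90.7 FPKM in HF floxed, 237, 51.9 and 57.5 FPKM in LF knockout, and 51.0, 370 and 186 FPKM in LF floxed libraries. LF floxed 2 was its highest library, and both LF groups spanned the HF floxed values. The enzymes that make squalene and lanosterol were uneven within HF knockout. Sqle, squalene monooxygenase, a rate-limiting step of the later pathway, had 12.9, 90.3 and 9.47 FPKM in HF knockout, 12.8, 14.1 and 3.68 FPKM in HF floxed, 16.9, 2.18 and 3.09 FPKM in LF knockout, and 2.67, 25.9 and 13.8 FPKM in LF floxed libraries. Its ratio of highest to lowest library was the largest of all members in 3 of the 4 groups, at 3.84 in HF floxed, 7.74 in LF knockout and 9.70 in LF floxed. Lss, lanosterol synthase, had 5.01, 44.8 and 5.0 FPKM in HF knockout, 5.02, 5.85 and 3.81 FPKM in HF floxed, 6.49, 3.22 and 3.08 FPKM in LF knockout, and 3.35, 9.99 and 5.34 FPKM in LF floxed libraries. HF knockout 2 held 8.96 times the mean of its group mates, and those mates were at the level of HF floxed. Fdft1, squalene synthase, was at 60.9 FPKM in HF knockout 2 and between 14.7 and 42.9 FPKM in the other 11 libraries.

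Among the 9 enzymes after lanosterol, 7 were highest in HF knockout 2. Msmo1, a methylsterol monooxygenase of the later demethylation steps, had 69.3, 140 and 58.4 FPKM in HF knockout, 41.5, 45.8 and 38.2 FPKM in HF floxed, 36.9, 28.6 and 30.5 FPKM in LF knockout, and 18.5, 81.1 and 48.2 FPKM in LF floxed libraries. All 3 HF knockout libraries lay above those of HF floxed and of LF knockout. LF floxed held both the lowest library and the next highest after HF knockout 2. Tm7sf2, a sterol reductase, had 30.3, 72.4 and 25.1 FPKM in HF knockout, 26.3, 27.1 and 25.4 FPKM in HF floxed, 51.3, 24.4 and 22.4 FPKM in LF knockout, and 37.0, 86.2 and 66.2 FPKM in LF floxed libraries. The HF floxed libraries were nearly equal, with a ratio of highest to lowest of 1.07, and all lay below LF floxed. Dhcr7, the dehydrocholesterol reductase that makes cholesterol itself, had 35.4, 152 and 34.4 FPKM in HF knockout, 40.1, 35.7 and 25.6 FPKM in HF floxed, 35.1, 18.8 and 19.3 FPKM in LF knockout, and 16.3, 53.4 and 33.0 FPKM in LF floxed libraries. Cyp51, the lanosterol demethylase, was at 90.8 FPKM in HF knockout 2 and between 9.99 and 35.1 FPKM elsewhere. Nsdhl, a dehydrogenase of the demethylation complex, was at 82.6 FPKM there and between 8.80 and 44.0 FPKM elsewhere. Ebp ran the other way: HF knockout 2 was its lowest library at 74.3 FPKM, and HF knockout 1 its highest at 157 FPKM. Among the genes of transport and storage, Soat2, the acyltransferase that esterifies cholesterol in hepatocytes, ran from 7.72 to 19.7 FPKM.

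**Figure D2:**
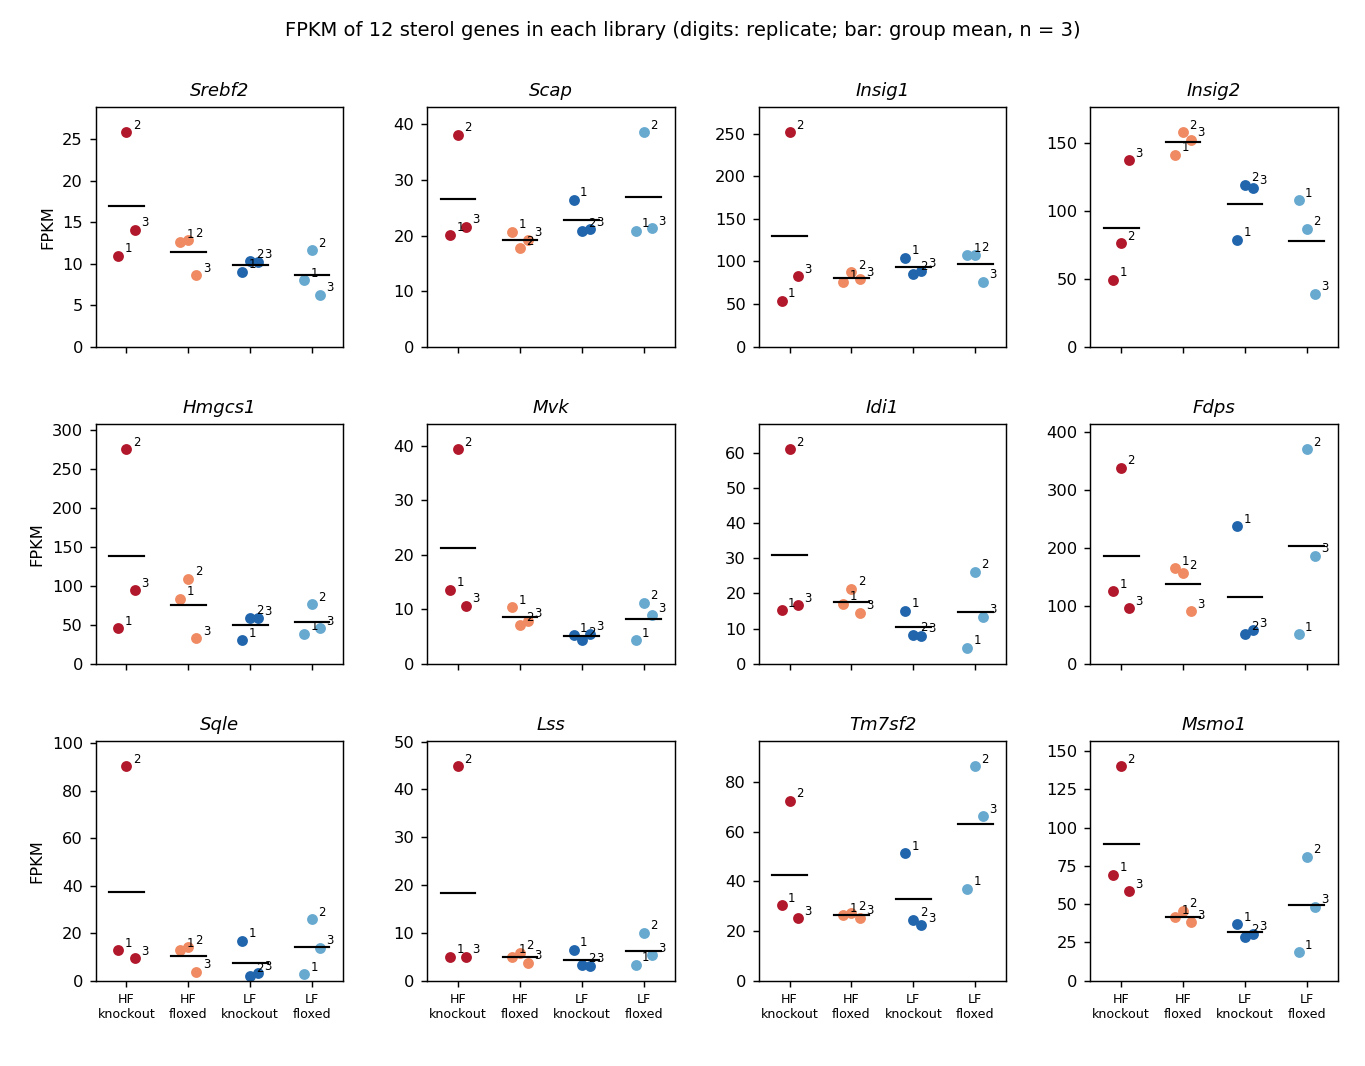
FPKM (vertical axes, each from 0) of 12 genes in every library, grouped as HF knockout, HF floxed, LF knockout and LF floxed. Points are libraries with their replicate number and bars are group means of 3. In HF knockout the mean of Sqle (37.5 FPKM) lies above the libraries of replicates 1 and 3 (12.9 and 9.47 FPKM), and replicate 2 stands at 90.3 FPKM.

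HF was compared with LF within knockout mice with edgeR's quasi-likelihood test on rounded estimated counts scaled by TMM, a factor that evens out library composition. A positive log2 difference means higher on HF. The median difference of the 29 genes was 0.60, beside 0.03 for all 12587 tested genes, and 23 genes were higher and 6 lower, where 52.9% and 47.1% of all genes were. No member passed at a false discovery rate of 5% (smallest adjusted p = 0.344), where 0% of all tested genes passed. At an unadjusted p under 0.05, 11 members were higher and 0 lower, beside 8.81% and 3.38% of all genes. DESeq2 called 1 member, Mvk (adjusted p = 0.00499), among 126 genes. That fit counted the near-identical LF knockout 2 and 3 as separate libraries. With near-identical libraries averaged, edgeR gave a member median of 0.42 and a smallest adjusted p of 0.761. DESeq2 was not run on the averaged libraries. In FPKM, the HF and LF libraries did not overlap for 4 members, all higher on HF and none lower, beside 5.59% and 5.98% of all genes. On TMM-scaled counts 4 members were also higher without overlap and 0 lower, beside 7.17% and 6.75%. Mvk was higher by 2.09 ± 0.46 (SE; edgeR adjusted p = 0.344), Idi1 by 1.54 ± 0.61 (adjusted p = 0.361), Msmo1 by 1.499 ± 0.45 (adjusted p = 0.344) and Srebf2 by 0.79 ± 0.27 (adjusted p = 0.344). On TMM-scaled counts Idi1 overlapped and Lbr did not. Dhcr7 and Lbr, also among the members of smallest p, differed by 1.57 ± 0.57 and 0.69 ± 0.25 (edgeR adjusted p = 0.346 each), with overlapping FPKM.

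By role, the median difference was 2.06 for the 3 squalene and lanosterol enzymes and 0.85 for the 6 filed from mevalonate to farnesyl diphosphate. It was 0.69 for the 9 after lanosterol, 0.25 for the 5 regulators and 0.07 for the 3 genes of transport and storage. For the 3 filed from acetyl-CoA to HMG-CoA it was 0.03, with Hmgcs1 at 1.48, Acat2 at 0.03 and Aacs at -0.06. In HF knockout 2 the squalene and lanosterol enzymes had a median of 8.09 times the mean FPKM of that library's group mates. Without HF knockout 2, the median of the 29 genes was 0.05, with 16 higher and 13 lower. Mvk then differed by 1.38, Msmo1 by 1.10, Idi1 by 0.67, Dhcr7 by 0.60 and Srebf2 by 0.41 on the log2 scale. In this comparison all 6 Kupffer cell markers (median 1.14) and all 6 monocyte and lipid-associated macrophage markers (median 1.70) were higher on HF, with none passing in edgeR. Of the stellate cell markers 4 of 6 were higher, of the hepatocyte markers 2 of 6, and of the erythroid markers 0 of 3. The Kupffer cell sums were 126, 48.9 and 240 FPKM in HF knockout 1, 2 and 3, and 46.5 to 77.2 FPKM in LF knockout libraries. HF knockout 2 was thus the lowest of its group in this sum. The monocyte and macrophage sums were 38.3 to 829 FPKM in HF knockout and 35.9 to 45.1 FPKM in LF knockout libraries. Of the 829 FPKM, in HF knockout 2, Spp1 made up 743 FPKM and Cd9 81.4 FPKM.

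In floxed mice the same diet comparison ran the other way. The median difference of the 29 genes was -0.49, beside 0.00 for all tested genes, and 4 genes were higher and 25 lower on HF, where 49.9% and 50.1% of all genes were. No member passed in edgeR (smallest adjusted p = 0.277), where 0% of tested genes passed. At an unadjusted p under 0.05, 0 members were higher and 3 lower (Tm7sf2, Scap and Stard4), beside 6.85% and 5.32% of all genes. DESeq2 called 1 member, Tm7sf2 (adjusted p = 0.0462), among 254 genes, with the near-identical HF floxed 1 and 2 counted as separate libraries. With near-identical libraries averaged, edgeR gave a member median of -0.51 and a smallest adjusted p of 0.886. In FPKM, Insig2 and Mylip were higher in all HF libraries, beside 23.6% of all genes, and Scap and Tm7sf2 lower in all of them, beside 3.30%. FPKM values of all genes ran higher on HF in this comparison, by a median of 0.197 on the log2(FPKM + 1) scale, and on that scale 9 members were higher and 20 lower. On TMM-scaled counts 2 members were higher without overlap (Insig2 and Mylip) and 3 lower (Scap, Tm7sf2 and Lbr), beside 11.5% and 12.5% of all genes.

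Tm7sf2 averaged 26.3 ± 0.84 FPKM in HF floxed and 63.1 ± 24.8 FPKM in LF floxed libraries (SD, n = 3 each), a log2 difference of -1.52 ± 0.45 (SE; edgeR adjusted p = 0.277). Insig2 averaged 150.3 ± 8.41 FPKM in HF floxed and 77.7 ± 35.2 FPKM in LF floxed libraries (SD, n = 3 each), a difference of 0.69 ± 0.37 (SE; edgeR adjusted p = 0.473). Scap differed by -0.73 ± 0.29 (edgeR adjusted p = 0.365) and Mylip by 0.74 ± 0.54 (adjusted p = 0.596). Stard4, a cytosolic sterol carrier, differed by -0.93 ± 0.40 (adjusted p = 0.388), Soat2 by -0.61 ± 0.28 (adjusted p = 0.412) and Lbr by -0.50 ± 0.25 (adjusted p = 0.442), with overlapping FPKM. LF floxed 2 was the highest library of all 12 for Scap, Tm7sf2 and Stard4. Without it the median of the 29 genes was -0.13, with 11 higher and 18 lower. Tm7sf2 then differed by -1.24, Scap by -0.39 and Stard4 by -0.43. Cell type markers moved with this comparison in the same fit, with none passing in edgeR. All 6 hepatocyte markers were lower on HF (median log2 difference -0.85), with summed levels of 39577 to 43978 FPKM in HF floxed and 56356 to 72103 FPKM in LF floxed libraries. All 6 stellate cell markers were higher (median 1.70), with sums of 97.7 to 193 FPKM in HF floxed and 52.2 to 95.6 FPKM in LF floxed libraries. Of the 6 monocyte and lipid-associated macrophage markers 5 were higher (median 1.63), with sums of 44.1 to 148 FPKM in HF floxed and 36.3 to 76.4 FPKM in LF floxed libraries. Their part in the differences of the sterol genes was not tested.

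**Figure D3:**
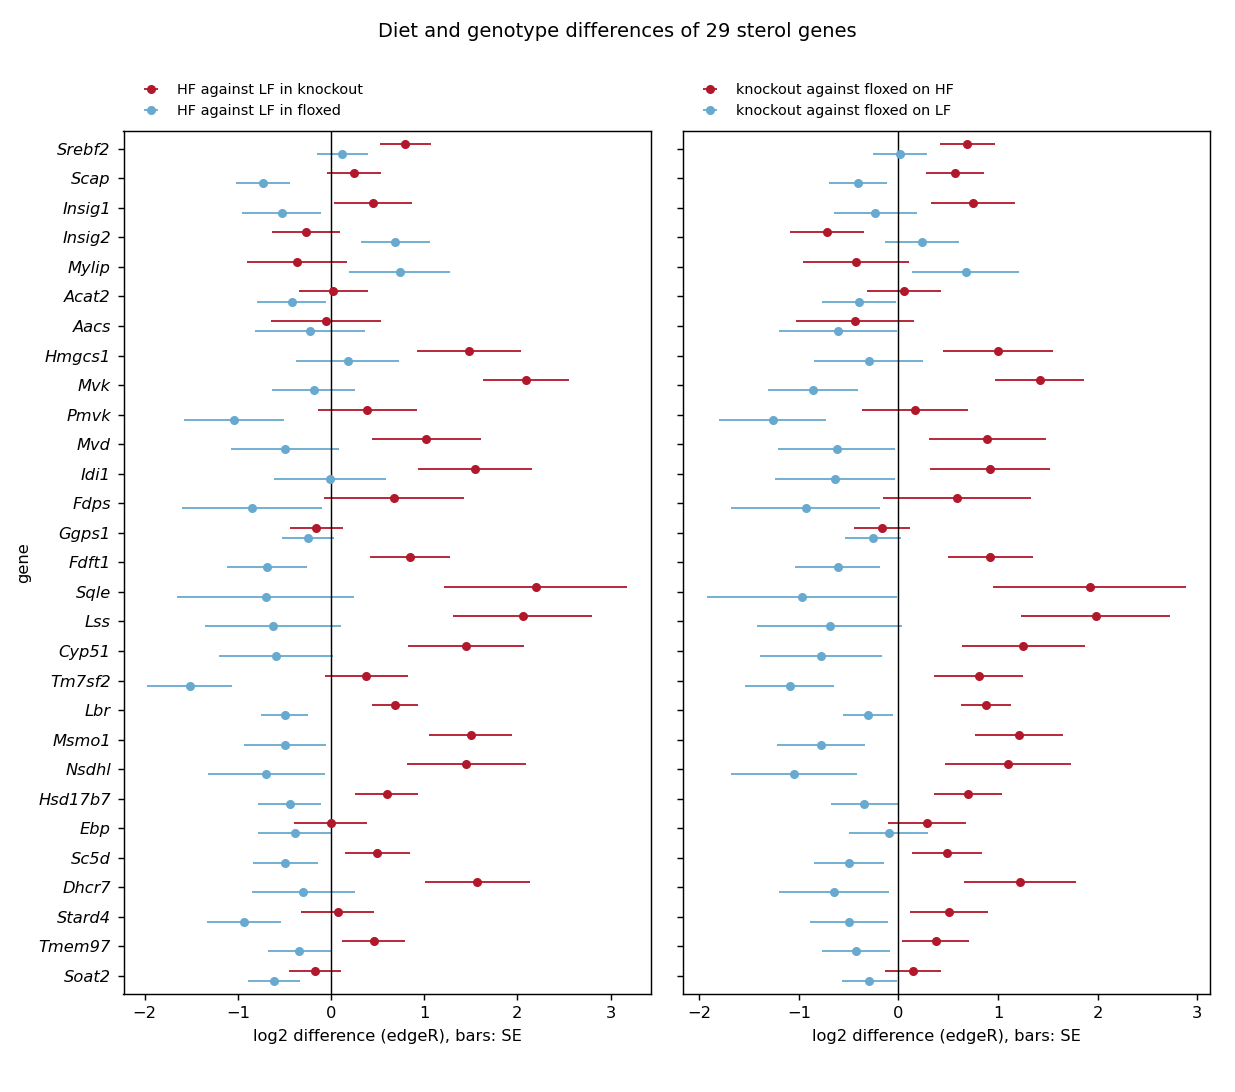
Log2 differences of the 29 genes from edgeR (points, with SE bars). The left panel gives HF against LF in knockout and in floxed mice, the right panel knockout against floxed on HF and on LF. Differences in knockout mice, and on HF, lie mostly right of 0, and those in floxed mice, and on LF, mostly left, and none passed the false discovery rate of 5%.

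Knockout was compared with floxed on each diet. These comparisons share their libraries with the diet comparisons, so they are not separate evidence. On HF the median difference of the 29 genes was 0.70, beside 0.03 for all genes, with 25 higher and 4 lower in knockout mice, where 53.4% and 46.6% of all genes were. No member passed in edgeR (smallest adjusted p = 0.598), where 0% of genes passed, and DESeq2 called 0 members among 69 genes. At an unadjusted p under 0.05, 5 members were higher and 0 lower, beside 4.59% and 3.06% of all genes. In FPKM, Mvk and Msmo1 were higher in all HF knockout libraries, beside 2.25% of all genes, and Insig2 lower in all of them, beside 7.08%. On TMM-scaled counts Srebf2 and Lbr joined the higher ones, 4 in all beside 4.75% of genes, and Insig2 was the 1 lower, beside 5.35%. Mvk averaged 21.2 ± 15.8 FPKM in HF knockout and 8.49 ± 1.68 FPKM in HF floxed libraries (SD, n = 3 each), a log2 difference of 1.42 ± 0.45 (SE; edgeR adjusted p = 0.598). Msmo1 differed by 1.21 ± 0.44 (edgeR adjusted p = 0.606), Insig2 by -0.72 ± 0.37 (adjusted p = 0.690), Lbr by 0.88 ± 0.25 (adjusted p = 0.598), Srebf2 by 0.69 ± 0.27 (adjusted p = 0.610) and Lss by 1.98 ± 0.75 (adjusted p = 0.607). Without HF knockout 2 the median of the 29 genes was 0.15, with 18 higher and 11 lower, and Lss differed by 0.23, Srebf2 by 0.31, Mvk by 0.71, Lbr by 0.66, Msmo1 by 0.81 and Insig2 by -0.62.

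On LF the median difference was -0.50, beside -0.02 for all genes, with 3 members higher and 26 lower in knockout mice, where 47.4% and 52.5% of all genes were. No member passed in edgeR (smallest adjusted p = 0.929), where 0.0159% of genes passed, and DESeq2 called 0 members among 34 genes. At an unadjusted p under 0.05, 0 members were higher and 2 lower (Tm7sf2 and Pmvk), beside 2.58% and 2.55% of all genes. Mylip was higher in all LF knockout libraries in FPKM, beside 16% of all genes, and no member was lower without overlap, beside 2.18%. On TMM-scaled counts 0 members were higher and 0 lower without overlap, beside 6.53% and 6.90%. Pmvk, phosphomevalonate kinase, differed by -1.26 ± 0.54, Tm7sf2 by -1.09 ± 0.45, Nsdhl by -1.05 ± 0.63, Mvk by -0.86 ± 0.45, Msmo1 by -0.78 ± 0.44 and Mylip by 0.67 ± 0.54 (SE; edgeR adjusted p = 0.929 each). Without LF floxed 2 the median was -0.19, with 9 higher and 20 lower, and Msmo1 differed by -0.23, Mvk by -0.57, Nsdhl by -0.61, Pmvk by -0.81 and Tm7sf2 by -0.81.

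The interaction term tests whether the diet difference itself differed between the genotypes. Its median over the 29 genes was 1.18, beside 0.05 for all genes, with 27 positive and 2 negative (Insig2 and Mylip), where 54.0% and 46.0% of all genes were. No member passed in edgeR (smallest adjusted p = 0.396), where 0.0159% of genes passed, and DESeq2 called 0 members (smallest adjusted p = 0.057) among 107 genes. At an unadjusted p under 0.05, 10 members were positive and 0 negative, beside 5.21% and 4.34% of all genes. The members of smallest p were Mvk at 2.28 ± 0.64 (SE; edgeR adjusted p = 0.396), Lbr at 1.18 ± 0.35 (adjusted p = 0.404), Msmo1 at 1.99 ± 0.62 (adjusted p = 0.423), Tm7sf2 at 1.90 ± 0.63 (adjusted p = 0.434) and Lss at 2.68 ± 1.04 (adjusted p = 0.482). The Lss term was 0.92 without HF knockout 2. Without that library the median was 0.65, without LF floxed 2 it was 0.83, and without both it was 0.28.

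**Figure D4:**
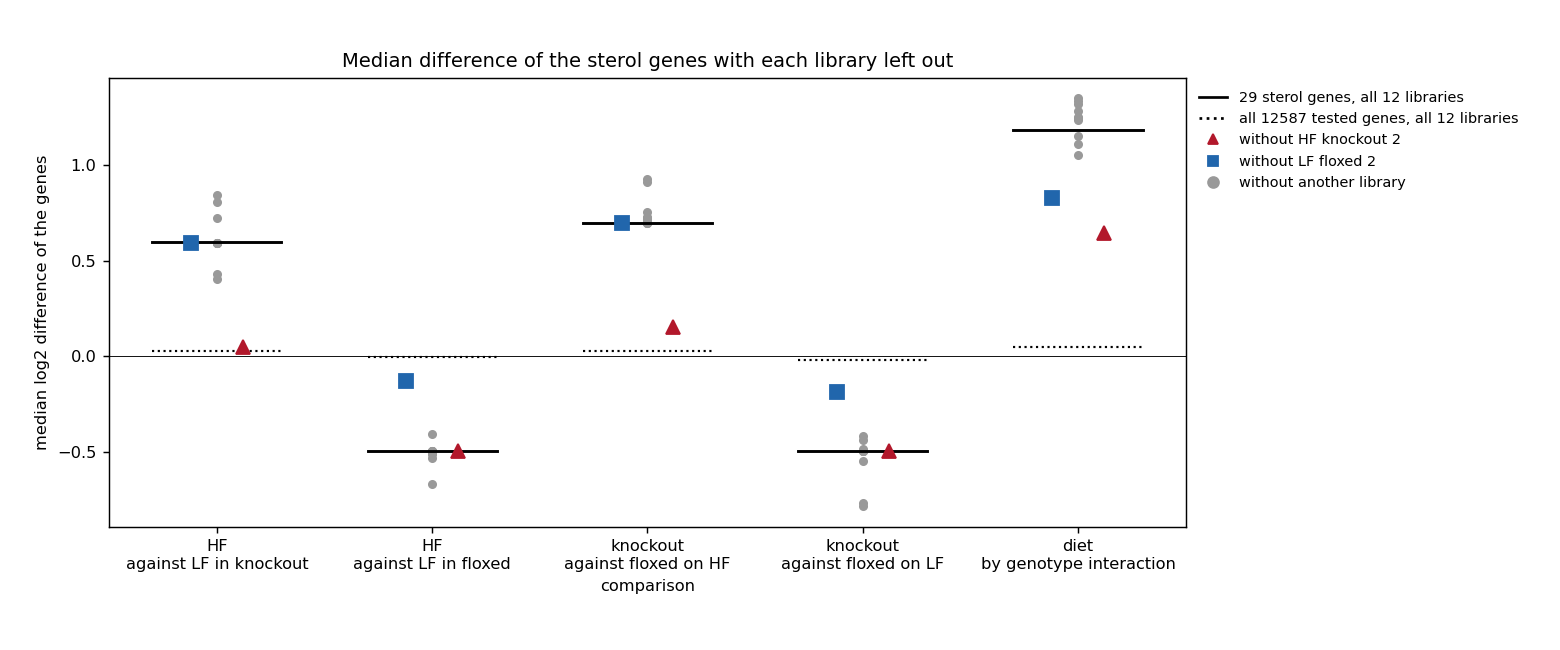
Median log2 difference of the 29 genes (vertical axis) in the 5 comparisons, with all 12 libraries (solid bars, beside dotted bars for all tested genes) and with each library left out in turn (points). Leaving out HF knockout 2 takes the HF against LF difference in knockout mice to 0.05, against 0.60 with all libraries, and leaving out LF floxed 2 takes that in floxed mice to -0.13, against -0.49.

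Single libraries stood out within groups. HF knockout 2 was the highest of 12 libraries for 17 of 29 members, where it was the highest for 22% of all tested genes, and the count was also 17 on TMM-scaled counts. The 17 were Srebf2, Insig1, Hmgcs1, Mvk, Mvd, Idi1, Fdft1, Sqle, Lss, Cyp51, Lbr, Msmo1, Nsdhl, Hsd17b7, Sc5d, Dhcr7 and Tmem97. LF floxed 2 was the highest for 7 members (Scap, Acat2, Aacs, Pmvk, Fdps, Tm7sf2 and Stard4), where it was the highest for 3.22% of all genes. These libraries together accounted for all but 5 members. In HF knockout 2, 19 members lay more than 2-fold above the median of the other 11 libraries, where 13.9% of all genes did, and the median ratio of the members was 2.51. The highest ratios were 8.95 for Lss, 7.05 for Sqle and 4.98 for Mvk. Within HF knockout, 26 of 29 members had a highest library more than 2 times the lowest, where 45.3% of genes did. The counts were 4 of 29 in HF floxed (22.3% of genes), 7 in LF knockout (18.1%) and 19 in LF floxed (21%).

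The low end was shared by more libraries and depended on the scale. In FPKM, LF floxed 1 was the lowest library for 10 members and HF knockout 1 for 8, where they were the lowest for 14.2% and 23.1% of all genes. On TMM-scaled counts these numbers were 4 and 6 members, beside 8.36% and 12.6% of all genes, and LF knockout 3 was the lowest for 6, beside 4.93%. On TMM-scaled counts the members of LF knockout 2 and 3, the near-identical pair, had medians of -0.41 and -0.40 (log2) relative to the 12-library median, with 25 and 27 of 29 members below it. Among the 6 LF libraries, LF knockout 1, LF floxed 2 and LF floxed 3 were the 3 highest in FPKM for 19 members (65.5%), where they were the 3 highest for 12.3% of all genes. On TMM-scaled counts they were so for 21 members (72.4%) and 14.6% of all genes. This set of libraries was picked after the values were seen.

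Other transcripts also differed between single libraries, not always the same ones. HF knockout 2 had the highest sum of the 6 monocyte and lipid-associated macrophage markers, at 829 FPKM. The other 11 libraries had sums of 35.9 to 148 FPKM. Spp1 (osteopontin) made up 743 FPKM and Cd9 81.4 FPKM, each at its highest of all 12 libraries. On TMM-scaled counts Gpnmb, Trem2, Itgax and Ccr2 lay within the range of the other libraries. The sum of the 4 cholangiocyte markers was also highest in HF knockout 2, at 11.8 FPKM against 1.96 to 6.0 FPKM elsewhere. Sox9 and Epcam were at their highest there on TMM-scaled counts, and Krt7 and Krt19 were not. The hepatocyte markers were split in that library. Their sum was the highest of all 12 libraries, at 103190 FPKM against 39577 to 72103 FPKM elsewhere, and it was made up mostly of Alb (albumin, 72054 FPKM) and Apoa1 (apolipoprotein A-I, 22760 FPKM). Ttr, Cps1 and Tat, 3 of the 6 markers, were at their lowest of all 12 libraries there, at 3334, 87.7 and 59.6 FPKM, on TMM-scaled counts as well. Neutrophil markers stood out in HF knockout 3, with a sum of 387 FPKM against 1.68 to 9.88 FPKM in the other 11 libraries. The Kupffer cell marker sum of HF knockout 2, 48.9 FPKM, lay within the range of the other libraries, but its markers were split too. Clec4f and Marco were at their lowest of all 12 libraries there, at 10.8 and 0.06 FPKM, on TMM-scaled counts as well. Vsig4 was at its lowest in FPKM only, at 3.73 FPKM. Timd4, Cd5l and Adgre1 lay within the range of the other libraries. In bulk liver, fewer cells of a type and less RNA per cell cannot be told apart. Dbp, an output gene of the circadian clock, was at 34.1 FPKM in HF knockout 1, 84.2 FPKM in LF knockout 1, 90.8 FPKM in LF floxed 2 and 57.9 FPKM in LF floxed 3, and between 1.98 and 5.03 FPKM in the other 8 libraries. The time of day of collection is not given in the sources used here. The part of these markers and of Dbp in the differences of the sterol genes was not tested.

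Neighbouring pathways were read from the same edgeR fit, with 0 genes of these lists called in any of the 5 comparisons. The 10 genes of SREBP processing and sterol-regulated protein degradation had medians of -0.01 for HF against LF in knockout mice and 0.03 in floxed mice, with 4 and 5 of the 10 higher. Rnf145, a sterol-responsive ubiquitin ligase, differed by -0.58 ± 0.31 for HF against LF in floxed mice (SE; edgeR adjusted p = 0.473). The 11 genes of sterol trafficking and esterification had medians of -0.06 and 0.10 in the same order of genotypes. Lipa, the lysosomal acid lipase, differed by -0.57 ± 0.29 between knockout and floxed mice on HF (adjusted p = 0.686), and Soat1, the other cholesterol acyltransferase, by 1.32 ± 0.71 for HF against LF in floxed mice (adjusted p = 0.474). The 8 genes of LXR and efflux had medians of 0.18 in knockout and -0.29 in floxed mice. Abcg5, a subunit of the sterol exporter into bile, differed by -0.74 ± 0.24 for HF against LF in floxed mice (edgeR adjusted p = 0.304), and Abcg1 by 1.39 ± 0.47 in knockout mice (adjusted p = 0.344).

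The lipogenic targets of SREBP1, the sister factor that drives fatty acid synthesis, did not follow the sterol genes in knockout mice. Their median for HF against LF was -0.80 in knockout mice, with 1 of 8 higher, and -0.73 in floxed mice, with 0 of 8 higher. Me1, malic enzyme, had 11.4, 14.2 and 49.4 FPKM in HF knockout and 180, 57.9 and 60.8 FPKM in LF knockout libraries, a difference of -2.08 ± 0.63 (SE; edgeR adjusted p = 0.344). Acss2, acetyl-CoA synthetase, differed by -1.82 ± 0.65 in floxed mice (adjusted p = 0.325). In HF knockout 2 the 8 targets were spread: in FPKM, Acly (ATP citrate lyase) was at its highest of 12 libraries at 123 FPKM, and the other 7 ranked from 4 to 11, with Me1 and Srebf1 at rank 11. The 10 genes of the isoprenoid branches had medians of 0.02 and 0.22 in knockout and floxed mice. Coq2, which starts the ubiquinone ring's prenylation, differed by 0.44 ± 0.13 in floxed mice (adjusted p = 0.277), and Fnta, a farnesyltransferase subunit, by -0.31 ± 0.13 in knockout mice (adjusted p = 0.390). The 11 clock genes had medians of -0.53 in knockout and -0.45 in floxed mice, with 2 and 3 of the 11 higher on HF. Arntl averaged 5.53 FPKM in HF floxed and 2.58 FPKM in LF floxed libraries, and Npas2 2.02 and 1.19 FPKM, each with overlapping libraries. Per3 and Dbp, which follow the clock, differed by -3.17 ± 1.17 and -4.14 ± 1.59 in floxed mice (adjusted p = 0.331 and 0.349).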

How the data were processed

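Liver RNA from 12 libraries, 4 groups of 3 by diet and genotype, was sequenced by BGI, per the labels. The deposited estimated counts (expected counts) have the column layout of RSEM, per the file headers, and 87.0 to 88.1% of them are whole. The deposited FPKM values were scaled by the authors to gene length and number of fragments, per the file headers. The submitters' processing notes name build mm9. No aligner, counter or annotation is named there. Loci that carry no gene name held 6.65% of the counts in HF knockout 2 and 11.58 to 17.33% in the other libraries. These loci entered neither library sizes nor tests. A gene absent from a file was taken as 0 there.

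The rounded counts went into edgeR 4.0.16 (R 4.3.3) with TMM factors (0.819 to 1.204), filterByExpr by group (12587 genes) and a quasi-likelihood test on the 4 group means of all 12 libraries. Adjustment was by Benjamini-Hochberg over all genes tested, and standard errors came from the same model. The common biological coefficient of variation was 34.8%. The steps were also run on simulated counts with known changes, with the outcome not reported here. Those counts were drawn independently for each library, so the run held no near-identical pair and no outlying library. Alternatives were DESeq2 1.42.0, its size factors in edgeR, no filter on low counts, limma 3.58.1 on FPKM (pseudocount 1 or 0.1, a floor of 1 FPKM in 3 libraries, or no floor), only the compared groups, replicate number as a block, near-identical libraries averaged, and each library left out in turn. HF floxed 3 and HF knockout 1, whose files are named in another form, were also left out together, and the promoter search was repeated on the 250 bases before the start. Leaving out HF knockout 2 and LF floxed 2 together was chosen after seeing the data.

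The members and lists were chosen with earlier results of these data known. All 29 members are named. A difference with its SE is given for members whose groups did not overlap in FPKM or that were among the 5 of smallest p in a comparison, and for up to 2 genes of smallest p in each neighbouring list, of which 1 is not reported here. Replicates that share a number were not treated as pairs, since no label ties them.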

Additional observations from a re-analysis of the deposited data

How the results depend on the processing

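The medians kept their sign under the alternatives run, but single members did not all do so: HF against LF had 16 members higher and 13 lower in knockout mice without HF knockout 2, against 23 and 6 with all libraries, and 11 higher and 18 lower in floxed mice without LF floxed 2, against 4 and 25. The median of the 29 genes ranged from 0.044 to 0.843 for HF against LF in knockout mice, -0.668 to -0.129 in floxed mice, 0.152 to 0.927 for knockout against floxed on HF, -0.784 to -0.165 on LF, and 0.278 to 1.393 for the interaction. Leaving out 1 library at a time gave 0.050 to 0.843, -0.668 to -0.129, 0.152 to 0.927, -0.784 to -0.186 and 0.647 to 1.351 in the same order. With HF knockout 2 and LF floxed 2 left out together, the medians were 0.167 for knockout against floxed on HF and 0.278 for the interaction. The interaction median was 0.586 with limma on log2(FPKM + 1), with and without a filter, and 0.622 on log2(FPKM + 0.1), where the filtered medians of all genes were -0.229 and -0.29. DESeq2 called 1 member in each diet comparison, Mvk in knockout and Tm7sf2 in floxed mice, and no other alternative called a member. The cause of these shifts was not tested. Over all genes, edgeR called 0 and DESeq2 126 for the diet in knockout mice, 0 and 254 in floxed mice, 0 and 69 for the genotype on HF, 2 and 34 on LF, and 2 and 107 for the interaction. In floxed mice, a fit of the compared groups only called 82 genes and leaving out HF floxed 3 and HF knockout 1 together called 158. With the replicate block the medians were 0.485, -0.453, 0.601, -0.381 and 0.938, with 0 members called. With near-identical libraries averaged they were 0.423, -0.508, 0.705, -0.432 and 1.181, also with 0 members called. The deviations of same-numbered libraries from their group means correlated between -0.331 and 0.404. For HF against LF in knockout mice, 3 of 6 libraries correlated best with their own number, and for the genotype on HF 2 of 6. In the other pairwise comparisons 0 of 6 did. With 3 libraries per group, this cannot show whether the numbers pair animals. The NF-Y, Sp1 and sterol element counts were also 21, 21 and 1 of 24 in the 250 bases before the start. Mylip, Ggps1 and Lbr rest on as few as 18, 38 and 66 estimated counts per library.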
